A study of Gossypium hirsutum with 12 samples.

Results

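Heat at 42 °C in leaves of the cotton cultivar Sicala 45 was examined by setting 3 arrays of heated plants against 3 arrays of plants kept at 32 °C, 6 of the 12 arrays of the series. The members were chosen by their titles alone, and the comparison ran over all 24029 probe sets that are not array controls. The series as a whole concerns why cotton cultivars differ in heat tolerance. Its other 6 arrays hold a second cultivar, Sicot 53, under the same 2 temperatures. They are used here as a second set of leaves and in the shared estimate of the spread. Both groups were upland cotton (Gossypium hirsutum) of the genotype Sicala 45, with no transgene or added agent named in the labels, grown in field soil and sampled at first square, when the first flower buds show, from the third youngest leaf that had fully expanded. All plants first spent 4 d in the growth cabinet, with 32 °C days and 25 °C nights. The 32 °C group then stayed in those conditions, and the 42 °C group was well watered under days of 42 °C and 67% relative humidity and nights of 25 °C and 40%. The cabinet held the 42 °C group after the 32 °C group had left it, so the day temperature cannot be told apart from the cabinet run, the humidity or the time of sampling. Each group has 3 samples of leaf tissue, which the labels do not describe as different plants. The p-values therefore rest on the spread within the groups, which may be technical.

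Leaves above their usual temperature lose photosynthetic capacity, in part because Rubisco activase, the protein that frees Rubisco of bound inhibitors, is itself unstable to heat. Plant cells answer with heat shock factors, which switch on chaperone genes, and with other transcription factors, among them the NAC family and the AP2 families (RAV, DREB and CBF, ERF), which bind the promoters of stress genes. Cell wall synthesis, lipid desaturation and the removal of reactive oxygen are known to shift in heated leaves. The platform annotation names few of the transcripts on this array. Only 318 probe sets carry 1 gene with an informative name, for 237 names, and the list of heat shock proteins and factors matched none of them, so that family is not analysed here.

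The deposited values are MAS5 signals, a brightness per probe set that Affymetrix software summarises from several probes. On the 6 Sicala 45 arrays the median signal lay between 87.6 and 115, and across probe sets the log2 signals of arrays of the same group had an r of 0.932 to 0.970. Replicate 3 at 42 °C stands apart in how its values were stored: they run to 9 significant digits, against 5 on the other 11 arrays, and none is below 1, against 111 to 440 probe sets on the others. The labels do not say whether it was processed in another way, and its part in the results was not tested beyond leaving it out. As a check of the labelled tissue, Rubisco activase (RCA1) read between 20925 and 44130 on all 6 arrays and glycolate oxidase (GOX), an enzyme of photorespiration, between 1485 and 3348. The 32 °C and 42 °C arrays overlapped at both genes. The poly-A spikes, bacterial RNAs added before labelling, gave 474, 595 and 550 at 32 °C and 778, 722 and 767 at 42 °C. They were 1.40 times as bright at 42 °C (log2 difference +0.49 ± 0.10 SE, exact two-sided permutation test, p = 0.1, the smallest that 20 arrangements allow). The hybridisation controls, another set of added controls, were 1.38 times as bright, but overlapped. They gave 1204, 3762 and 2755 at 32 °C and 4116, 2834 and 2784 at 42 °C (+0.46 ± 0.52 SE, exact two-sided permutation p = 0.4). The 3'/5' ratio of a control rises when RNA or cDNA lacks its 5' part. For the ubiquitin control ubq11 it was 6.14, 5.82 and 10.7 at 32 °C and 6.39, 24.6 and 11.2 at 42 °C. Replicate 2 at 42 °C was the highest of the 6 (exact two-sided permutation p = 0.2). It was also the highest for actin, at 14.7 (log2 difference +0.21 ± 0.35 SE, exact two-sided permutation p = 0.7). For another control, ss1, the ratio was lower at 42 °C (-0.27 ± 0.61 SE, exact two-sided permutation p = 0.8). Its highest array was replicate 3 at 32 °C, at 27.5. The ratios thus differed in direction, and the groups overlapped at each.

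The test called a small share of the probe sets, more of them higher than lower at 42 °C. At a limma adjusted p under 0.05 (Benjamini-Hochberg, over 24029 probe sets), 257 probe sets were called, 1.07% of those tested. Without adjustment 3027 (12.6%) had a p under 0.05, so the called share is not the share of transcripts that changed. Of the 257, 173 rose (0.72%) and 84 fell (0.35%). The median log2 change was +1.68 among the rises and -1.46 among the falls, against 0.03 over all probe sets. Every change is 42 minus 32 °C on the scale of log2(signal + 16), which understates folds where a signal is near 16 or below. At 257 of 257 calls the 3 heated arrays lay wholly above or wholly below the 3 at 32 °C. Groups this far apart were common without a call, since 4240 probe sets (17.6%) had them, 2216 higher (9.22%) and 2024 lower (8.42%).

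The rises reached further than the falls. Of the 173 rises, 164 were at least 2-fold, 59 at least 4-fold, 25 at least 10-fold and 5 at least 30-fold. Of the 84 falls, 77 were at least 2-fold, 16 at least 4-fold and 2 at least 10-fold. The mean signal of the risen probe sets had a median of 419 at 32 °C and 1850.3 at 42 °C, and that of the fallen ones had a median of 1292 at 32 °C and 428 at 42 °C. At 32 °C, 28 of the 173 risen probe sets averaged below 101, the mean of the array medians. The split by direction depends on the scaling: with each array scaled to its poly-A spikes, the median change of all probe sets became -0.46 and 482 were called, 76 higher and 406 lower, so that the share of rises went from 67.3% to 15.8%. The number of calls fell with any Sicala 45 array left out, to 73, 69 and 102 without replicate 1, 2 or 3 at 32 °C and to 146, 161 and 158 without replicate 1, 2 or 3 at 42 °C.

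**Figure D1:**
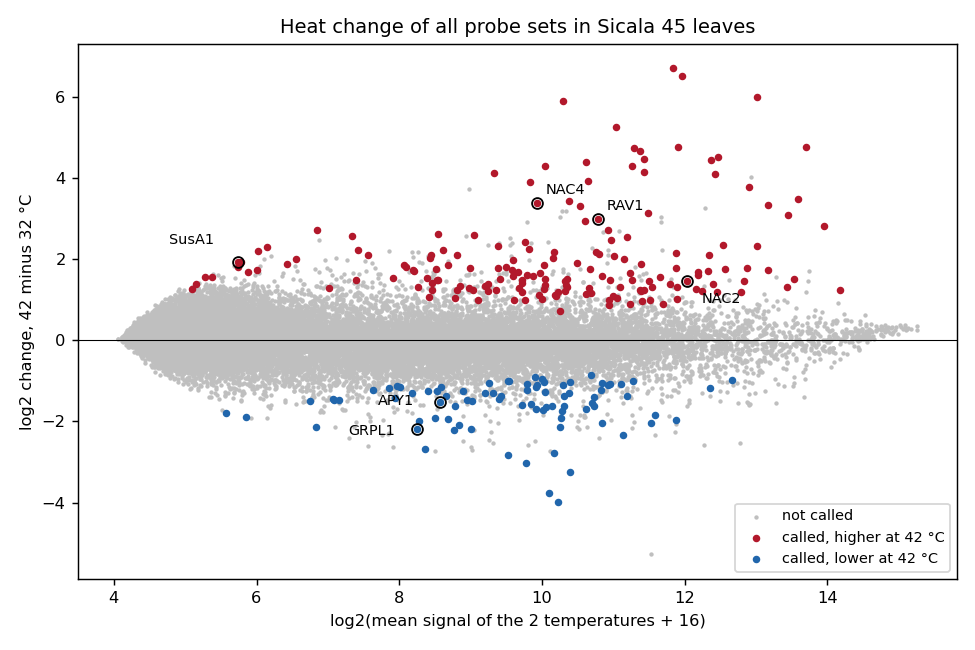
Each point is 1 of 24029 probe sets, with its log2 change in Sicala 45 (42 minus 32 °C) against log2 of its mean signal at the 2 temperatures plus 16. Red points are the 173 called rises, blue points the 84 called falls and grey points were not called; circles mark the lead probe set of each named gene that was called, and the rises extend further from 0 than the falls.

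Among named genes, 8 probe sets of 6 genes were called, 2.52% of the 318 with a name, against 1.07% of all probe sets. They were the NAC factors NAC4 and NAC2, the factor RAV1 and the sucrose synthase SusA1, which rose, and GRPL1 and the apyrase APY1, which fell. The other 249 called probe sets have no informative gene name. Of these, 6 have a gene ID without a name and 243 no single gene ID.

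NAC4 (gene ID LOC107916546), a member of the plant NAC family of transcription factors, had the largest named rise. Its probe set Ghi.7907.2.A1_at read 142, 189.5 and 122 on replicates 1 to 3 at 32 °C and 2040.2, 1228.5 and 2013 at 42 °C. The heated arrays lay far above the others, with replicate 2 the lowest of them. The rise was 10.5-fold (+3.39 ± 0.33 SE on the log2 scale, limma adjusted p = 0.000585). It was called in all 24 alternatives of the analysis, where it ranged from +2.90 to +3.63. A second NAC4 probe set, Ghi.7907.1.S1_s_at, was dimmer, at 48.8, 64.1 and 38.2 at 32 °C and 395, 127 and 368.5 at 42 °C. It rose 4.32-fold (+2.11 ± 0.39 SE, limma adjusted p = 0.0230). Again replicate 2 was the lowest heated array, and this second call was lost without replicate 1, 2 or 3 at 32 °C or replicate 1 or 3 at 42 °C (limma adjusted p between 0.0662 and 0.0976).

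NAC2 (LOC107962533), of the same family, was already bright at 32 °C. Ghi.3264.2.A1_s_at read 2060.5, 2259.9 and 2354 at 32 °C and 7102.5, 5621.5 and 5706 at 42 °C. The groups were apart, replicate 1 was the highest heated array, and the rise was 2.74-fold (+1.45 ± 0.25 SE, limma adjusted p = 0.0134). The other NAC2 probe set, Ghi.3264.1.S1_s_at, rose 2.61-fold, from 1773, 1766 and 2342 to 6079.9, 4969.8 and 4377.5 (+1.38 ± 0.27 SE, limma adjusted p = 0.0272). Both calls are close to the threshold: the first was lost without replicate 1, 2 or 3 at 32 °C or replicate 1 at 42 °C (adjusted p between 0.0516 and 0.0718 in limma), and the second without any 1 of the 6 arrays (between 0.0579 and 0.127). Scaled to the spikes, they were +0.96 and +0.89 and neither was called.

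Over the whole NAC list, 4 of 12 probe sets (2 of 7 genes) rose, against 0.72% of all probe sets, and none fell. The list's median log2 change was +0.71, with a range of 0.25 to 3.39. All 12 changes were above 0 in the MAS5 scaling and 6 of 12 after scaling to the spikes, where the list's median was +0.22 against -0.46 for all probe sets. The 8 probe sets that were not called belong to NAC10, NAC5, NAC6, NAC7 and NACL2, whose groups overlapped.

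RAV1 (LOC107946446), a transcription factor with an AP2 and a B3 DNA-binding domain, was the other strong named rise. Its probe set GhiAffx.30941.1.S1_s_at gave 247, 358.5 and 386 at 32 °C and 2079, 1597.5 and 5834 at 42 °C. Every heated array was above every array at 32 °C, and replicate 3 stood well above the other heated arrays. The rise was 7.93-fold (+2.99 ± 0.53 SE, limma adjusted p = 0.0166). Without replicate 3 at 42 °C it was +2.43 and not called (limma adjusted p = 0.0617), and it was also not called without replicate 1, 2 or 3 at 32 °C (between 0.0572 and 0.0882). A dim RAV1 probe set, Ghi.8341.1.S1_x_at, read 3.0, 13.7 and 4.7 at 32 °C and 57.4, 89.0 and 161 at 42 °C, which is +2.29 ± 0.57 SE and was not called (limma adjusted p = 0.0833). The last, GhiAffx.30941.1.A1_s_at, gave +0.98 ± 0.30 SE (limma adjusted p = 0.161).

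Of the 8 probe sets in the list of RAV, CBF and DREB factors, the RAV1 probe set was the 1 called, as a rise (0.72% of all probe sets rose), and the list's median was +0.53. CBF17, of the family that binds cold- and drought-response promoters, has 2 probe sets that differ. GhiAffx.33925.1.S1_at read 73.1, 61.8 and 78.7 at 32 °C and 114, 134.5 and 177 at 42 °C, so its groups were apart, but at +0.84 ± 0.29 SE it was not called (limma adjusted p = 0.234). Its other, brighter probe set lay between 9830 and 15948 on the 6 arrays, overlapped between the temperatures and was at +0.23 ± 0.22 SE.

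**Figure D2:**
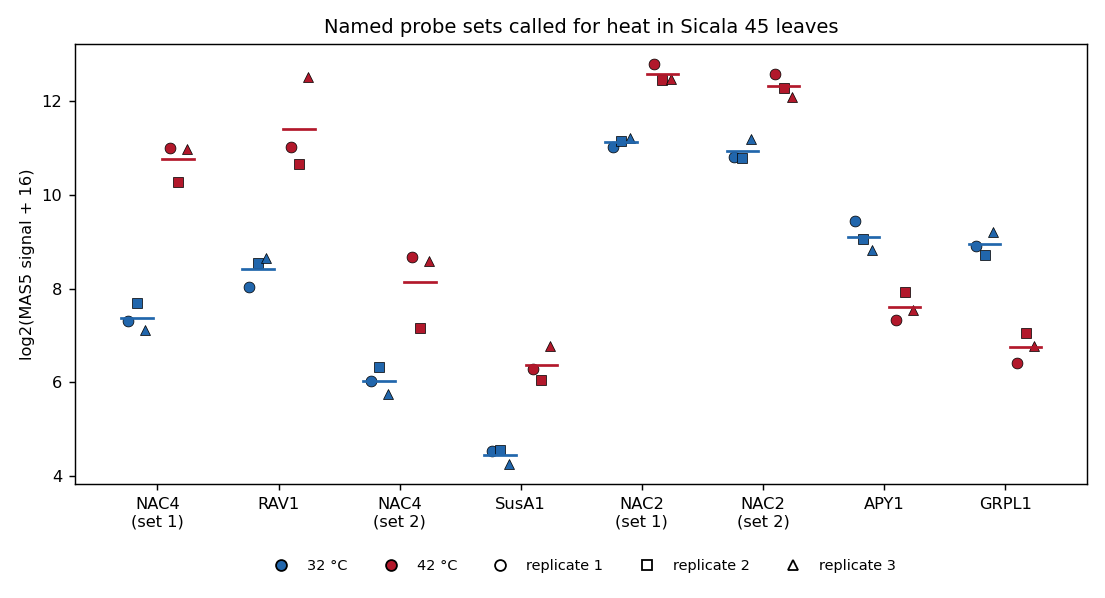
The y axis is log2(MAS5 signal + 16) of the 8 named probe sets called for heat in Sicala 45, blue at 32 °C and red at 42 °C, with the symbol giving the replicate and the line the mean of 3 arrays. The groups are apart at all 8, replicate 3 is the highest heated array for RAV1, and APY1 and GRPL1 are the falls.

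The other called named genes were SusA1, GRPL1 and APY1. SusA1 (LOC107910106), a sucrose synthase, which splits sucrose into fructose and UDP-glucose, was near the floor of the array at 32 °C. Ghi.8050.1.A1_s_at read 7.1, 7.4 and 3.0 at 32 °C and 61.4, 50.5 and 94.3 at 42 °C. The groups were apart, all 6 values were below their arrays' medians, and the rise was +1.93 ± 0.42 SE (limma adjusted p = 0.0469). A brighter SusA1 probe set, Ghi.8050.1.S1_s_at, overlapped between the temperatures, at 79.1, 142 and 46.1 against 191, 84.1 and 319 (+0.96 ± 0.66 SE, limma adjusted p = 0.596). The SusA1 call was lost in 14 of its 22 alternatives, among them the removal of any 1 of the 6 Sicala 45 arrays (limma adjusted p between 0.0751 and 0.162), of Sicot 53 replicate 1 at 32 °C (0.0717) or of Sicot 53 replicate 3 at 42 °C (0.0739), which enter through the shared estimate of the spread.

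GRPL1 (LOC107953490) is also listed under the name rgp1, which is used for reversibly glycosylated polypeptides, proteins of cell wall polysaccharide synthesis. Its probe set Ghi.4598.3.A1_at read 464, 407 and 572 at 32 °C and 69.5, 116 and 93.5 at 42 °C. All heated arrays were below all arrays at 32 °C, and the fall was 4.59-fold (-2.20 ± 0.35 SE, limma adjusted p = 0.00978). A second probe set, Ghi.4598.2.S1_at, read 592, 297 and 307 at 32 °C and 162, 129 and 85.3 at 42 °C, also apart, but missed the threshold (-1.52 ± 0.36 SE, limma adjusted p = 0.0728). Another, GhiAffx.1589.6.S1_at, gave -0.40 ± 0.25 SE (limma adjusted p = 0.548). The fourth, Ghi.4598.3.S1_s_at, was at 15.3 or below on all 6 arrays and gave +0.37 ± 0.30 SE (limma adjusted p = 0.674). The probe sets of this gene therefore disagree on the size of the change, and the fourth, near the floor, also on its sign. The call of the first was lost without replicate 1 or replicate 3 at 32 °C (limma adjusted p = 0.0507 and 0.0527).

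APY1 (LOC107937027), an apyrase, which removes phosphates from nucleoside tri- and diphosphates, fell as well. Its probe set read 677, 521 and 438 at 32 °C and 145, 227 and 170.4 at 42 °C. The groups were apart and the fall was 2.85-fold (-1.51 ± 0.30 SE, limma adjusted p = 0.0300). This call was lost without replicate 1, 2 or 3 at 32 °C or replicate 1 or 3 at 42 °C (limma adjusted p between 0.0618 and 0.154). PAP10, a purple acid phosphatase of the same list of phosphatases and nucleotidases, read 1545, 1340 and 1166 at 32 °C and 828, 351 and 375 at 42 °C. Its groups were apart, with replicate 1 the highest heated array, but it was not called (-1.45 ± 0.38 SE, limma adjusted p = 0.102). Without replicate 1 at 42 °C it was -1.84 with a limma adjusted p of 0.0466, without Sicot 53 replicate 2 at 42 °C its adjusted p was 0.0315, and spike scaling gave 0.0344. The list of 4 probe sets had 1 fall, against 0.35% of all probe sets, and a median of -1.32.

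The largest changes belong to transcripts that the annotation does not name. GhiAffx.41577.1.S1_s_at read 51.9, 51.7 and 50.7 at 32 °C and 15947, 3930 and 3796 at 42 °C. Ghi.8355.1.A1_at read 107, 22.8 and 13.4 at 32 °C and 15094, 3621 and 2916 at 42 °C. On both, replicate 1 at 42 °C was about 4 times as bright as the other heated arrays. The rises were 92.2-fold (+6.53 ± 0.58 SE, limma adjusted p = 0.000342) and 105-fold (+6.71 ± 0.72 SE, adjusted p = 0.00138).

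The 2 largest falls were also unnamed. Gra.70.1.S1_s_at read 2645, 2616 and 1478 at 32 °C and 162, 118 and 94.7 at 42 °C, a 15.8-fold fall (-3.98 ± 0.34 SE, limma adjusted p = 0.000342). Ghi.10424.1.S1_s_at read 2485, 2207 and 1374.5 at 32 °C and 187, 93.4 and 125 at 42 °C, a 13.5-fold fall (-3.76 ± 0.34 SE, adjusted p = 0.0004). In both, replicate 3 was the lowest array at 32 °C, and the heated arrays were close to each other. All 4 of these probe sets were called in every alternative.

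The 6 called probe sets with a gene ID and no name hold 5 rises and 1 fall. LOC107946138 read 2468, 375 and 598 at 32 °C and 41248, 21295 and 14016 at 42 °C. It rose 27.5-fold (+4.78 ± 0.78 SE, limma adjusted p = 0.0116), although its call was lost without replicate 2 or replicate 3 at 32 °C (0.0655 and 0.0572). LOC107907037 read 3766, 1321 and 1444 at 32 °C and 30375, 20687 and 16365 at 42 °C, an 11.2-fold rise (+3.48 ± 0.44 SE, limma adjusted p = 0.00331). In both genes replicate 1 was the highest array at each temperature, and the groups were far apart. The other rises were LOC107930335 (+2.03), LOC107893157 (+1.32) and LOC107889069 (+0.98), and LOC107927831 fell by 1.54 on the log2 scale. LOC107930335 was called in all 24 alternatives. The calls of LOC107893157, LOC107889069 and LOC107927831 were lost in 8, 14 and 10 of 24 (limma adjusted p up to 0.143, 0.216 and 0.146 over all alternatives). Of these losses, 4, 8 and 6 came with a single array left out. The files give none of the 6 a function.

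The strongest rises varied more between heated arrays than transcripts in general did. At 24 of the 25 probe sets that rose at least 10-fold, replicate 1 was the highest of the 3 heated arrays, and at the remaining 1 it was replicate 3. The median signal of these 25 was 11372 on replicate 1 at 42 °C, 2321 on replicate 2 and 2263 on replicate 3. On the 32 °C arrays it was 159, 127 and 116, and replicate 1 was again the highest there at 15 of 25. The heated arrays remained above the 32 °C arrays at all 25, but the median SD of the log2 values was 1.24 in the heated group, against 0.415 over all probe sets. Replicate 1 at 42 °C was the highest heated array at 74.6% of the 173 rises and at 27.8% of all probe sets.

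Since every heated array was above every 32 °C array at these 25, leaving out an array could change their size and calls but not their direction. The 25 were also picked by their fold on these same arrays. Without replicate 1 at 42 °C their median fold was 12.5 in place of 21.3, 22 of 25 were called and 20 of 25 were still 10-fold or more. Without replicate 1, 2 or 3 at 32 °C, 18, 14 and 16 were called, without replicate 2 at 42 °C 21, and without replicate 3 at 42 °C all 25. Scaled to the spikes, 25 of 25 were called, with a median log2 change of +3.92 in place of +4.41. Of the 25, NAC4 has a name, 2 have a gene ID only and 22 have no single gene ID. At 7 of them the 32 °C mean was below the mean array median. In Sicot 53, a separate set of arrays, 25 of 25 were higher at 42 °C, with a median log2 change of +3.97, and 24 of 25 were called. Both cultivars share 1 estimate of the spread for each probe set. These calls are therefore not independent of how the 25 were picked. In Sicot 53 the uneven group was the 32 °C one. Its replicate 2 was the highest array at 24 of 25, with a median of 444 against 177 and 109 on the others. What sets these arrays apart within their groups was not tested.

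**Figure D3:**
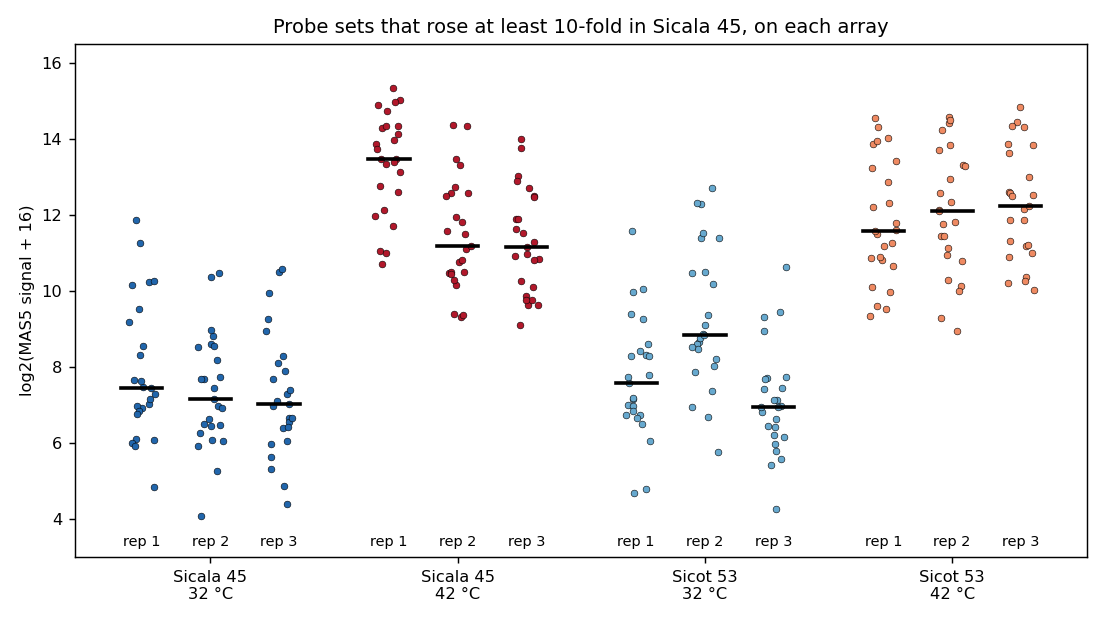
Each point is 1 of the 25 probe sets that rose at least 10-fold in Sicala 45, on each of the 12 arrays, as log2(MAS5 signal + 16), and black lines are medians. Replicate 1 of the heated Sicala 45 arrays stands above replicates 2 and 3, and in Sicot 53 replicate 2 stands above the other 32 °C arrays.

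A small group of rises sat near the floor of the arrays. At 10 of the 173 rises the mean signal at 42 °C was still below 100.4, the mean of the array medians, and their 32 °C means lay between 2.64 and 14.3. Their median log2 change was +1.71. Replicate 3 at 42 °C was the highest heated array at 9 of the 10, and without it 0 of 10 were called. This is the array whose values are stored differently, and its lower quartile was 31.4 against 18.0 to 23.7 on the other Sicala 45 arrays. Among the 10, 6 were higher at 42 °C in Sicot 53 and none was called there by limma. By contrast, all 163 other rises were higher at 42 °C in Sicot 53. SusA1 is 1 of the 10. Its call, and those of the 4 rises with the opposite sign in Sicot 53, were also lost without replicate 1, 2 or 3 at 32 °C. The count over all 10 was made only without replicate 3 at 42 °C.

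Hormone, signalling and transcription factor lists outside NAC and RAV held no calls. The 16 lists with no call hold 168 probe sets, of which 0 passed the limma test and 19 (11.3%) had an unadjusted p under 0.05, against 12.6% of all probe sets. Of 14 probe sets for ethylene synthesis and response, none was called, and their median was -0.23. The ethylene response factor ERF8 read 241, 493 and 190 at 32 °C and 1698, 482 and 994 at 42 °C. Its groups overlapped at replicate 2 (+1.67 ± 0.57 SE, limma adjusted p = 0.228). ACS3, which makes the ethylene precursor ACC, was dim and overlapped too (-1.04, adjusted p = 0.444). None of the 19 MYB, MADS, WRKY and HOX probe sets was called (median 0.01, range -1.99 to +0.78). Among them WRKY15 was at -0.50 (its dimmer probe set, at -0.12, overlapped) and the MADS-box factor MADS-3 at +0.78 ± 0.27 SE, both of these with groups apart (limma adjusted p = 0.345 and 0.238).

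Of 10 probe sets for abscisic acid, gibberellin and auxin genes none was called (median 0.01), with Aux6 at -0.44. Of the 4 Aux4 probe sets, a dim one (12.3 to 83.5) was at +1.07 with groups apart, another dim one at +0.49, and those reading between 250 and 557 and between 589 and 787 were at -0.12 and -0.02. Of 26 kinases and calcium sensors none was called (median -0.03). The protein kinase PK1 read 560.1, 411 and 622 at 32 °C and 225, 274 and 331 at 42 °C, apart but not called (-0.90 ± 0.24 SE, limma adjusted p = 0.110). The MAP kinase MPK3 has 7 probe sets, with changes from -0.96 (adjusted p = 0.309) to +0.39. The calcium sensor CBL1 was at +1.07 on a probe set reading 1.8 to 60.8 (adjusted p = 0.327) and at -0.16 on another, reading 54.3 to 83.0. Of the 5 small GTPase probe sets none was called (median -0.06). ARF1, whose symbol also stands for an auxin response factor, read 2759, 3024 and 3972 at 32 °C and 1342, 2109 and 1692 at 42 °C. It too was apart and not called (-0.92 ± 0.24 SE, limma adjusted p = 0.0941), and Rac9, at +1.37, overlapped.

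Photosynthesis genes with a name were few, and neither of the pair examined was called. RCA1 read 20925, 40740 and 29430 at 32 °C and 44130, 33077 and 33491 at 42 °C. Replicate 1 was the lowest array at 32 °C and the highest at 42 °C, and the groups overlapped (+0.32 ± 0.31 SE, limma adjusted p = 0.737). The sign of RCA1 turned under spike scaling (-0.17) and quantile normalization (-0.01). GOX read 1607.5, 1625 and 1485 at 32 °C and 3348, 1598 and 2407 at 42 °C, overlapping at replicate 2 (+0.57 ± 0.28 SE, limma adjusted p = 0.434).

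Antioxidant enzymes showed no calls among 12 probe sets (median -0.13). GST, a glutathione transferase, read 6525, 7461 and 9900.5 at 32 °C and 1763, 4166 and 4863 at 42 °C. It was apart, with replicate 1 the lowest heated array, and not called (-1.25 ± 0.37 SE, limma adjusted p = 0.156). The other 3 GST probe sets overlapped, at -0.36, +0.18 and +0.02. The superoxide dismutase CSD2a was at +0.48 (adjusted p = 0.405), with groups apart, and at -0.01 under spike scaling. Of 12 class III peroxidases none was called (median -0.04). In this family pod5 was at +1.32 and pod1 at -0.81, both with groups apart (limma adjusted p = 0.259 and 0.379).

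Among 45 cell wall probe sets, SusA1 rose, GRPL1 fell and 43 were not called (1.07% of all probe sets were called), with a median of -0.12. XTH3, which cuts and rejoins xyloglucan, read 521, 1808 and 1781 at 32 °C and 2211, 2372 and 7293 at 42 °C. Its groups were apart with a wide spread (+1.49 ± 0.65 SE, limma adjusted p = 0.363). The cellulose synthase CelA1 was at +0.93 and the fasciclin-like protein FLA13 at -1.38 on dim probe sets with groups apart, neither called (adjusted p = 0.337 and 0.266). On brighter probe sets whose groups overlapped, CelA1 was at +0.23 and FLA13 at -0.85. The gene f15, also listed as CASPL2A1, was at +1.13 with groups apart (adjusted p = 0.264) and at +0.46 on a brighter probe set that overlapped.

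The cytoskeleton list of 20 probe sets had no calls and a median of -0.35, with 15 below 0 and a range of -2.57 to +1.20. Its lowest value was that of the beta-tubulin BTub1, whose groups overlapped. BTub1 read 3574, 8871 and 10181 at 32 °C and 122, 2574 and 4343 at 42 °C (-2.57 ± 1.11 SE, limma adjusted p = 0.355). In this list the beta-tubulin BTub3 was at -1.02, the actin-binding protein CAP at -0.78 and the alpha-tubulin TubA2 at -0.55, all with groups apart (limma adjusted p = 0.326, 0.195 and 0.192). The lipid and sterol list of 19 had no calls and a median of -0.23, with 13 below 0. There the sterol methyltransferase SMT2-1 read 2810.5, 1841 and 2977 at 32 °C and 831, 1505 and 1522 at 42 °C (-0.996 ± 0.32 SE, limma adjusted p = 0.198). The desaturase 3FAD was at -0.68 (adjusted p = 0.338).

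The S-adenosylmethionine synthetase MAT came close to the threshold. It read 4876, 4004 and 6769 at 32 °C and 1796.5, 2563 and 2223 at 42 °C, wholly apart (-1.22 ± 0.31 SE, limma adjusted p = 0.0877). It passed the threshold when Sicot 53 replicate 2 at 32 °C was left out of the shared estimate of the spread (adjusted p = 0.0446) and under spike scaling (0.0401). Ssh2 was at -0.93 (adjusted p = 0.370).

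Flavonoid synthesis, ion transport and dehydration genes gave no calls, and the spread was wide for DFR and Lea5-D. DFR, the dihydroflavonol reductase of the anthocyanin branch, read 7128, 1523 and 5220 at 32 °C and 879, 3402 and 132 at 42 °C. It overlapped at replicate 2 in both groups (-2.33 ± 1.08 SE, limma adjusted p = 0.401), and the chalcone synthase CHS2, on its probe set of lowest p, was at 18.0 or below on every array. The 7 flavonoid probe sets had a median of -0.24. The late embryogenesis gene Lea5-D read 774, 6795 and 2999 at 32 °C and 1003, 2888 and 9465 at 42 °C, and its change of +0.26 ± 1.10 SE went to -0.58 without replicate 1 at 32 °C and to -0.56 without replicate 3 at 42 °C. Lea14-A was at +0.23, the vacuolar sodium/proton exchanger NHX1 at +0.94 and the salt-response kinase SOS2 at +0.24, all overlapping. Under spike scaling Lea5-D, Lea14-A and SOS2 were below 0, at -0.23, -0.26 and -0.25.

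**Figure D4:**
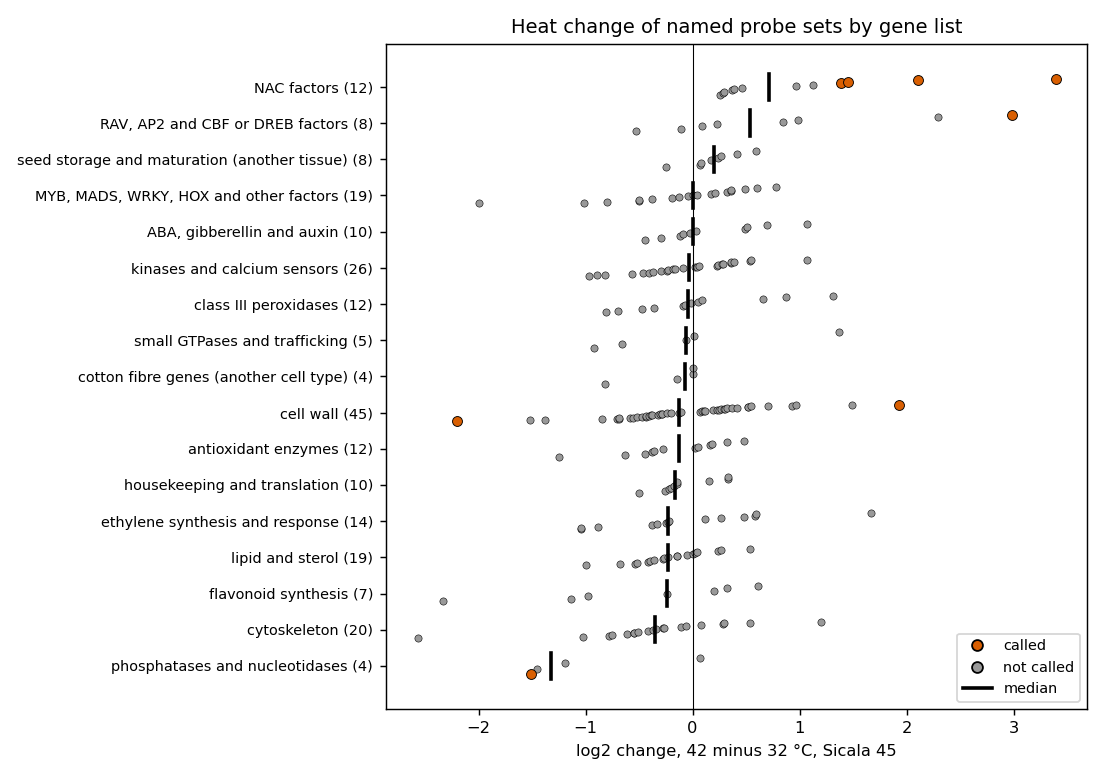
Each point is a named probe set, placed by its log2 change in Sicala 45 (42 minus 32 °C), with gene lists of at least 4 probe sets in rows and their sizes in brackets. Orange points were called and black bars are list medians. The NAC list has the highest median, +0.71, and 4 of the 8 calls.

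Genes listed as markers of other tissues gave no calls. Some of them were bright in these leaf samples, so their signals do not measure how much of another tissue was present. In these bulk leaf samples fewer cells of a type and less RNA per cell cannot be told apart. Of the 12 fibre marker names, 5 genes with 6 probe sets matched and none was called. Their summed signal was 22391 to 25866 at 32 °C and 21300.4 to 24221 at 42 °C, most of it from 1 FSLTP2 probe set that read between 14644 and 19874. The fibre gene Fb2 read 796, 695 and 836 at 32 °C and 326, 405 and 610 at 42 °C, apart but not called (-0.81 ± 0.29 SE, limma adjusted p = 0.253). FLA7 likewise read 471, 365 and 357 at 32 °C and 310, 134 and 320 at 42 °C (-0.69 ± 0.47 SE, adjusted p = 0.594). Both were lower on every heated array than on any array at 32 °C, and the other 4 fibre probe sets overlapped. The 2 seed markers matched of 5, Lea5-D and Lea14-A, summed to between 4686 and 13351 at 32 °C and between 5740 and 16060 at 42 °C. Of 8 seed storage and maturation probe sets none was called (median +0.20), and MatP7 read between 19.4 and 46.0 on the 6 arrays. The 2 leaf markers matched of 9, RCA1 and GOX, summed to between 22533 and 42365 at 32 °C and between 34675 and 47478 at 42 °C. Housekeeping and translation genes had no calls among 10 (median -0.16), with EF1A1 at +0.33 and EF1A2 at -0.50. EF1A1 was at -0.16 and MatP7 at -0.07 under spike scaling.

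Probe sets built from G. hirsutum sequence, as the prefix Ghi of their IDs is read here, gave 227 calls among 16800 (1.35%). Those with the prefix Gra, read as the diploid relative G. raimondii, gave 28 among 7068 (0.396%). The second kind was dimmer, with a median signal of 29.2 against 224. Among probe sets above the array median the shares were 2.05% (216 of 10539) and 1.34% (21 of 1565). The IDs of several named probe sets carry S or A letters that the sources used here do not explain, and IDs ending in s_at or x_at can pick up related transcripts, so the gene copies of this tetraploid may not be separate.

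In Sicot 53, whose changes come from its own 6 arrays, the probe sets called in Sicala 45 mostly changed with the same sign. There 188 probe sets were called (0.782%), 153 higher and 35 lower. That number was 11 and 45 without its replicate 1 or 3 at 32 °C, 45 and 70 without its replicate 2 or 3 at 42 °C, and 554 with array weights, where Sicala 45 had 365, so neither the order of the cultivars' counts nor the overlap built on them is firm. Both cultivars called 131, 51.0% of the Sicala 45 calls and 69.7% of the Sicot 53 calls, made up of 111 rises and 20 falls. The tests in the cultivars use the same estimate of the spread for each probe set, so this is not the overlap of independent tests. Of the 257 probe sets called in Sicala 45, 253 had the same sign in Sicot 53, against 64.5% of all probe sets. Their median log2 change in Sicot 53 was +1.49 for the 173 rises and -1.04 for the 84 falls. Since these were selected on Sicala 45, values there tend to be the larger. The 188 probe sets called in Sicot 53 behaved in the same way in reverse, with medians of +1.65 and -1.47 in Sicot 53 and +1.53 and -1.36 in Sicala 45.

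The test of the difference itself gave 0 calls by limma (0% of 24029, lowest adjusted p = 0.9996), with 703 probe sets at an unadjusted p under 0.05. Among the 257 calls, 25 were under 0.05 unadjusted, and the 95% interval of the difference had a median half-width of 0.847 on the log2 scale. These intervals are not adjusted for the number of probe sets, and a difference as large as +2.68 ± 0.47 SE did not pass the adjusted test. NAC4 was at +3.39 in Sicala 45 and +3.27 in Sicot 53, a difference of +0.12 ± 0.46 SE. RAV1 was at +2.99 and +1.89, NAC2 at +1.45 and +0.999, and APY1 at -1.51 and -0.71. GRPL1 was at -2.20 in Sicala 45 and -0.69 in Sicot 53 on its called probe set (difference -1.50 ± 0.49 SE, limma adjusted p = 0.9996). Its other probe sets differed by -0.37 (Ghi.4598.2.S1_at), +0.69 (GhiAffx.1589.6.S1_at) and +0.50 (Ghi.4598.3.S1_s_at), so the sign of the difference depends on the probe set. SusA1 was at +1.93 and +0.14 (difference +1.79 ± 0.59 SE, limma adjusted p = 0.9996), and its brighter probe set differed by +1.16 ± 0.93 SE. Of the named calls only NAC4, on its first probe set, was also called in Sicot 53 (limma adjusted p = 0.00149). The 4 called rises with the opposite sign in Sicot 53 were all dim, between 1.29 and 12.1 at 32 °C and between 18.9 and 110.3 at 42 °C. Replicate 3 was the highest heated array at 4 of 4, against 42.3% of all probe sets.

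**Figure D5:**
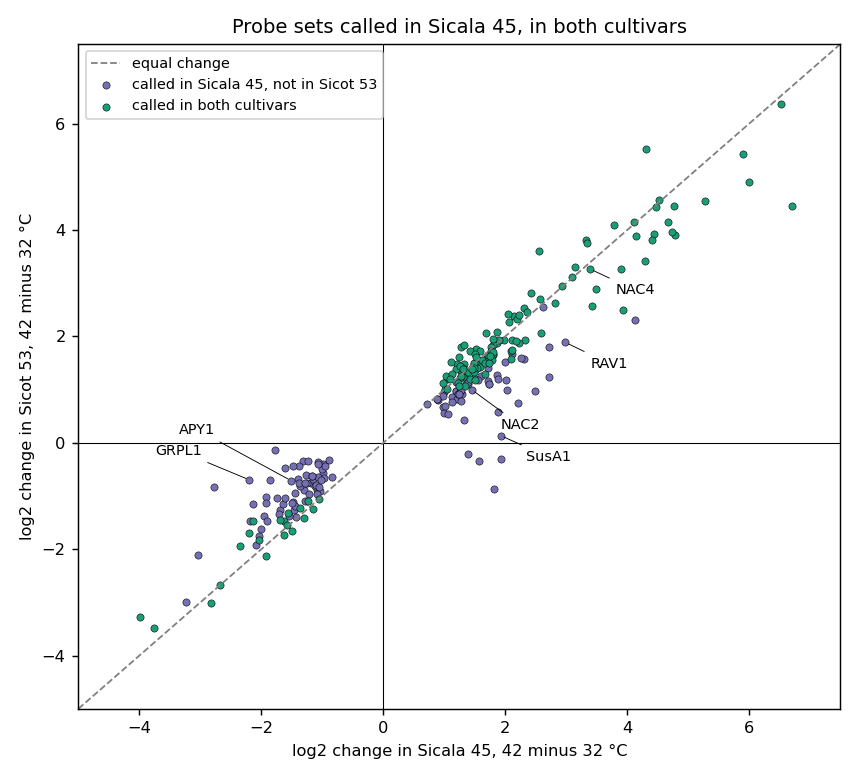
Each point is 1 of the 257 probe sets called in Sicala 45, with its log2 change (42 minus 32 °C) in Sicala 45 on the x axis and in Sicot 53 on the y axis. Green points were called in both cultivars and purple points in Sicala 45 but not in Sicot 53; 253 of 257 lie in the quadrants of equal sign, and GRPL1 and SusA1 are among the points nearer to 0 in Sicot 53.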

How the data were processed

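Per the labels' protocols, leaf RNA was extracted in hot borate buffer and biotin-labelled for the Affymetrix Cotton array. The table deposited by the authors holds 1 linear intensity for each probe set and array, made with MAS5 per the submitters' processing notes, without a version. The trimmed mean between percentiles 2 and 98 is 500 on every array, so each had been scaled to 1 target. Of the 24132 probe sets, the 103 AFFX controls were left out of the tests.

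From these, log2(signal + 16) was computed. In R 4.3.3, limma 3.58.1 fitted 4 means, 1 for each group of 3 arrays (lmFit, eBayes with an intensity trend, two-sided), so that all 12 arrays share 1 estimate of the spread, and p-values were adjusted by Benjamini-Hochberg with a threshold of 0.05. The script was tested on simulated data. For the control measures an exact permutation test was used. Figures used matplotlib 3.10.9 in Python 3.11.15.

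Names came from the platform annotation, updated through gene IDs with RefSeq genes of Gossypium_hirsutum_v2.1. A single gene ID exists for 697 probe sets (all matched), several for 46 and none for 23389. Named with values were all called probe sets with a name, other probe sets of the same genes, the 12 named genes of largest rise and of largest fall whose groups were apart, and examples of lowest p from 21 lists built as name patterns. Added were the 2 largest unnamed rises and falls, called probe sets with a gene ID only, and the called probe set most opposed in Sicot 53. Other probe sets of uncalled genes, FLA7 and BTub1 were added after their values were seen. Members and lists were chosen with earlier results of these data known. The alternatives tried were quantile normalization, median centring, spike scaling, pseudocounts of 1 and 64, filters on the dimmest 30% and 50%, no trend, array weights, only the 6 arrays, a replicate block, leaving out each array, and leaving out both replicate 2 arrays at 42 °C. No coordinates or sequences are given.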

Additional observations from a re-analysis of the deposited data

Results flagged for a closer look

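The heat changes of the unnamed probe set Gra.1764.1.A1_s_at went in opposite directions in the cultivars, with groups that did not overlap in either. In Sicala 45 it read 12.1, 8.8 and 2.1 at 32 °C and 61.9, 49.5 and 90.5 at 42 °C (+1.81 ± 0.34 SE, limma adjusted p = 0.0226). In Sicot 53 it was lower at 42 °C on all arrays (-0.87, adjusted p = 0.313). The difference of the changes was +2.68 ± 0.47 SE, and it did not pass the test over all probe sets (limma adjusted p = 0.9996). The Sicala 45 values are dim, and without replicate 3 at 42 °C the Sicala 45 change was +1.62 (adjusted p = 0.0716). Its call was also lost without replicate 1, 2 or 3 at 32 °C or replicate 1 at 42 °C (limma adjusted p between 0.0583 and 0.106).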

How the results depend on the processing

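Scaling to the poly-A spikes moved the Sicala 45 calls to 482 (76 higher, 406 lower), of which 159 were among the 257. It also turned the signs of uncalled values: GRPL1 (Ghi.4598.3.S1_s_at) to -0.12, CSD2a to -0.013, RCA1 to -0.17, Lea14-A to -0.26, Lea5-D to -0.23, SOS2 to -0.25, EF1A1 to -0.16 and MatP7 to -0.073, and quantile normalization turned RCA1 to -0.011. Under spike scaling the second NAC4 probe set (+1.62) and SusA1 (+1.44) were no longer called, and PAP10, GST, MAT, ARF1, PK1, TubA2, Fb2 and the second GRPL1 probe set newly passed the limma test as falls. Without the dimmest 50% there were 150 falls. Without the trend there were 47 falls and 118 calls in Sicot 53, and with array weights 146 falls and 554 calls in Sicot 53. The 6 arrays alone gave 138 calls (99 higher, 39 lower). Without both replicate 2 arrays at 42 °C, where the ubq11 ratio was highest in Sicala 45, there were 110 rises, and 13 calls in Sicot 53. Apart from the spikes, the 6 arrays, the replicate block and single arrays left out, the Sicala 45 count lay between 175 and 367. Leaving out 1 array at a time gave 69 to 301 calls, 50 to 182 rises and 11 to 119 falls in Sicala 45, 11 to 241 calls in Sicot 53 and 0 to 1 for the difference between cultivars, the 1 coming without Sicala 45 replicate 3 at 42 °C. Leaving out 1 array gave -0.58 to 1.05 for Lea5-D and -0.011 to 0.54 for Lea14-A. Over the 70 probe sets followed through the alternatives, 1492 values kept their direction and side of the threshold, 137 no longer passed it, 13 newly passed it and 12 turned sign. Settings with fewer arrays have fewer residual degrees of freedom, and the cause of the other changes was not tested.

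The titles number the replicates 1 to 3 in each group. Deviations of same-numbered arrays correlated at 0.21, -0.25 and 0.07 in Sicala 45 and at -0.06, -0.21 and -0.24 in Sicot 53. Deviations from a mean of 3 arrays are tied to each other, so these values cannot show whether the numbers pair the samples. The main fit treats the samples as unpaired. With the replicate block there were 103 calls in Sicala 45 (84 higher, 19 lower), 100 of them among the 257, and 61 in Sicot 53. The first NAC4 probe set and RAV1 remained called, and the other named calls did not (limma adjusted p between 0.0618 and 0.191).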
